A study of Mus musculus with 4 samples.

Results

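The regions described here are accessible sites that lie close together and carried a peak in every library. They were chosen by presence, width and position. Peaks of the 4 lists that overlapped by 1 bp or more were merged, and merged regions on chromosomes 1 to 19 with a peak in all 4 lists and a width under 800 bp were kept. Neighbours separated by an edge-to-edge gap of at most 12500 bp were then chained, and the members are the regions in chains of 3 or more. This gave 432 members in 117 chains, 3.81% of the 11349 narrow common regions and part of 50231 merged regions in all. The working name of enhancer-like clusters could not be checked, because the lists hold no histone mark, factor or gene. The groups are called chains below, after the way they were built.

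The libraries were made from mouse J1 embryonic stem cells of strain 129SV, grown without feeders on gelatin in 15% serum with 1000 units/mL leukemia inhibitory factor. The 2 DR+/+ libraries came from cells positive for MERVL and Zscan4c and the 2 DR-/- libraries from cells negative for both. MERVL is an endogenous retrovirus and Zscan4c a gene of the 2-cell embryo, and the positive cells are a rare state of these cultures that resembles that stage. All libraries share the strain and the medium, and J1 is 1 line. How the populations were separated, and whether replicates were grown apart, is not stated in the labels, and p-values therefore measure only the spread between these libraries, which may be technical. Where a population is given a pair of values, they are its replicates 1 and 2, in that order.

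In ATAC-seq the transposase Tn5 inserts adapters where nucleosomes leave DNA exposed, as at promoters, enhancers and insulators. Close groups of exposed sites are known from enhancer clusters near genes of cell identity, from arrays of related genes, and from repeated sequence such as the satellite DNA beside mouse centromeres. Peak callers commonly weigh the reads at a summit against a local background, so a site in a stretch that collects many reads can hold a tall pile of reads and still show a low fold enrichment.

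The 4 lists held 21630 to 40933 peaks on mm9, and the median peak had 15 or 16 reads piled up at its summit. The lowest background of a list ranged from 1.31 to 1.66 reads. The whole-number pileup at the summit and the background beneath it were worked out from the fold enrichment and p-value of each peak. Gene names and sequences are not given for the positions below, since the reference used here is of GRCm38 and positions were not carried between builds.

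Most chains were short. Of the 117 chains, 89 had 3 members, 17 had 4 and 11 had 5 or more, the largest holding 29. The chains spanned 1279 to 55188 bp with a median of 13555 bp, and 1.72 Mb together, of which 9.12% was covered by the members. The 315 gaps inside chains, which the rule limits, had a median of 4387 bp. Gaps under 1 kb made up 27.3% of the gaps inside chains and gaps of 10 kb or more 15.6%. The members were 124 to 796 bp wide with a median of 329 bp. At the edge of the rule, the widest gaps that joined neighbours were 12470 and 12497 bp and the narrowest that did not were 12521 and 12525 bp. Of the regions that met every other criterion, the widest within the limit measured 799 bp and the narrowest beyond it 800 bp. A total of 501 common autosomal regions were too wide, and 1 of them lay inside a chain, on chromosome 9 at 123842901 to 123843761.

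Chains were spread over all 19 autosomes, with 1 on chromosome 18 and 1 on chromosome 19 and 11 each on chromosomes 2, 5 and 6. Members were 7.71% of the narrow common regions of chromosome 6 (46 of 597, 95% Wilson interval 5.83 to 10.1%) and 7.62% of those of chromosome 9 (48 of 630, 5.79 to 9.96%). On chromosome 9 the share was 3.02% without its chain of 29. The lowest share was 0.885% on chromosome 18 (3 of 339, 0.301 to 2.57%). These intervals, like all others here, cover counting error only.

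The largest chain lay at the start of chromosome 9, at 3001134 to 3038254, 1096 bp from the first peak called on that chromosome. Its 29 members were 0.781 per kb, the second highest density among chains of 5 or more. The median member had a summit pileup of 175 and 191 reads in DR+/+ and 162 and 164 reads in DR-/-. The background beneath was 105 and 113 reads in DR+/+ and 89.5 and 90.8 reads in DR-/-. The median fold enrichment was therefore 1.75 and 1.70 in DR+/+ and 1.84 and 1.83 in DR-/-. Among the 117 chains it was the second tallest by median pileup in each library, after a chain of 3 on chromosome 2, and the lowest in median enrichment. The strongest member by enrichment, at 3001134 to 3001518, reached 2.41-fold and 2.40-fold in DR+/+ and 2.59-fold and 2.53-fold in DR-/-, a mean percentile of 0.313 among all narrow common regions.

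Chromosome 6 carried 2 chains that lay 53963 bp apart. The first, at 47604836 to 47635712, held 8 members at nearly equal distances. The 7 centre-to-centre spacings ran from 4.22 to 4.38 kb, with a mean of 4.33 ± 0.0506 kb (SD over the 7 spacings), a coefficient of variation of 1.17%. In the other 10 chains of 5 or more this coefficient ranged from 27.2 to 179%. The median pileup of the 8 members was 60 and 56 reads in DR+/+ and 45.5 and 50.5 reads in DR-/-, over backgrounds of 15.8, 16.4, 12.3 and 13.2 reads in the same order. Their median fold enrichment was 3.70 and 3.43 in DR+/+ and 3.49 and 3.62 in DR-/-, so the populations overlapped. The second chain, at 47689676 to 47728657, held 11 members, and 5 of its 10 spacings also lay between 4 and 5 kb. Over all chains 24 of 315 spacings did (7.62%), a count that includes these 5 and the 7 of the first chain. The strongest member of the second chain stood at its far end, at 47728005 to 47728657, where the background was only 4.23 to 5.82 reads. The enrichment there was 5.72-fold and 5.80-fold in DR+/+ and 5.38-fold and 6.11-fold in DR-/-.

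**Figure D1:**
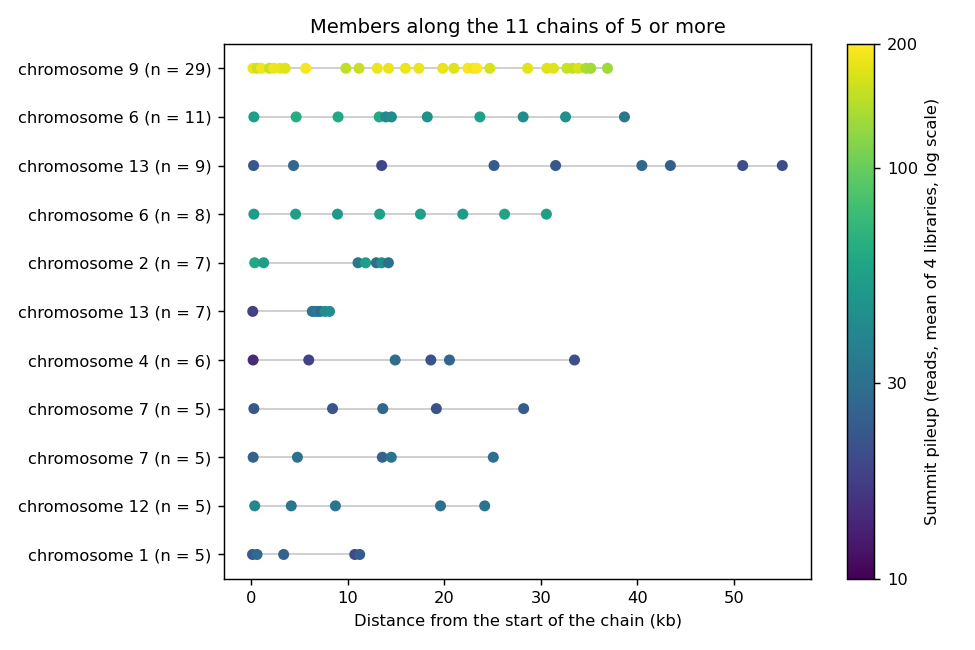
Positions of the members along the 11 chains of 5 or more, as distance from the start of each chain in kb, 1 row per chain. Colour gives the summit pileup as the mean of the 4 libraries on a log scale. The chromosome 9 chain of 29 is the tallest of those shown, and the chromosome 6 chain of 8 has spacings of 4.22 to 4.38 kb.

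The other long chains had backgrounds closer to those of ordinary regions. A chain of 9 on chromosome 13, at 23622791 to 23677978, was the longest, at 55188 bp. Its median pileup was 23 and 22 reads in DR+/+ and 23 and 22 reads in DR-/-, over 4.38 to 5.27 reads of background, and its median enrichment ran from 3.72-fold to 4.44-fold. Its strongest member, at 23654046 to 23654591, had 5.62-fold and 5.32-fold enrichment in DR+/+ and 4.94-fold and 5.05-fold in DR-/-. A chain of 7 on chromosome 2, at 181652065 to 181666413, had the highest median enrichment of the 10 largest chains in 3 of the 4 libraries. Its median enrichment was 7.12-fold and 6.34-fold in DR+/+ and 6.66-fold and 6.33-fold in DR-/-. Its leading member, at 181652065 to 181652823, had 57 and 59 reads at the summit in DR+/+ and 62 and 60 in DR-/-, and it ranked at a mean percentile of 93.1 among all narrow common regions. Another chain of 7, on chromosome 13 at 74659846 to 74668053, was the densest of the chains of 5 or more. It had 0.853 members per kb and a shortest gap of 65 bp.

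Chains of 5 completed the 10 largest. The 3 longest of the 4 chains of 5 were taken, and the fourth lay on chromosome 1 at 72272380 to 72283759. Those taken lay on chromosome 7 at 3193048 to 3221424 and at 13595018 to 13620243, and on chromosome 12 at 55811270 to 55835734. Their median enrichment in any library lay between 3.77-fold and 5.40-fold. A chain of 6 on chromosome 4, at 43038353 to 43072045, is described with the differences between the populations.

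Members had taller piles of reads than isolated sites but lower fold enrichment. The comparison set was the 9107 narrow common regions with no other within 12500 bp, called single regions, and strength was not used to form chains. The median member had 28 and 24 reads at its summit in DR+/+ and 22 and 24 in DR-/-, and the median single region 23, 19, 17 and 19 reads in the same order. The median background was 4.03, 3.66, 3.35 and 3.88 reads for members and 2.65, 2.50, 2.16 and 2.45 reads for single regions. The median fold enrichment was 5.33, 4.78, 4.92 and 5.05 for members and 6.44, 5.67, 5.71 and 5.81 for single regions. In each of the 4 libraries members thus had the taller pile, the higher background and the lower enrichment.

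Expressed as a ratio within each library, member enrichment was 0.835 ± 0.00968 of that of single regions in DR+/+ and 0.866 ± 0.00598 in DR-/- (SD, n = 2 each). The difference of -0.0311 gave p = 0.33 in an exact two-sided permutation test over libraries, the smallest p that 2 against 2 libraries allow. The pileup ratio was 1.24 ± 0.0324 in DR+/+ and 1.28 ± 0.0219 in DR-/-, and the background ratio 1.49 ± 0.0403 and 1.57 ± 0.0222. Measured by -log10 q, which rests on both the pile and its background, the ratio was 0.982 ± 0.0378 in DR+/+ and 1.06 ± 0.0218 in DR-/-. Members' own peaks were nearly as wide as those of single regions, with median widths of 286.5 and 307 bp in DR+/+ replicate 1 and 215 and 226 bp in DR-/- replicate 1. Without the chain of 29 the enrichment ratio was 0.857 and 0.879 in the 2 populations.

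The shift was larger in the classes with more neighbours. Regions in pairs had 0.905 and 0.926 of the enrichment of single regions in DR+/+ and DR-/-, members of chains of 3 had 0.884 and 0.916, and members of chains of 5 to 11 had 0.716 and 0.792. The background ratio was 1.18 and 1.21 for pairs, 1.31 and 1.33 for chains of 3, 1.49 and 1.63 for chains of 4, and 2.18 and 2.22 for chains of 5 to 11. The pileup ratio was 1.05 and 1.06 for pairs and 1.49 and 1.68 for chains of 5 to 11. The class of 5 to 11 held 68 members, among them the 11 and 8 of the 2 chains on chromosome 6. Those chains had median backgrounds of 12.3 to 17.0 reads, and the classes were not compared without chains of high background. Pooled over chains, the 198 inner members had a median enrichment of 4.89 and 4.54 in DR+/+ and 4.79 and 4.73 in DR-/-, and the 234 end members 5.63, 4.87, 5.09 and 5.22. Large chains weigh more on the inner set, and without the chain of 29 the medians were 5.23, 4.86, 4.94 and 5.08 for inner and 5.64, 4.88, 5.12 and 5.23 for end members. Within the 89 chains of 3, a comparison added after seeing the data, the middle member had a lower enrichment than the mean of the ends in 56 and 54 chains in DR+/+ and in 53 and 54 in DR-/-. Its background was higher in 61, 58, 49 and 58 of these chains. Median enrichment there was 5.63, 5.09, 4.97 and 5.29 for middle members and 5.74, 4.93, 5.22 and 5.44 for end members. In DR+/+ replicate 2 the middle members thus had the higher median. Median backgrounds were close, at 3.62, 3.32, 2.87 and 3.37 reads for middle and 3.34, 3.20, 2.83 and 3.26 reads for end members. Whether the reads of neighbouring sites raise the background beneath a member was not tested.

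**Figure D2:**
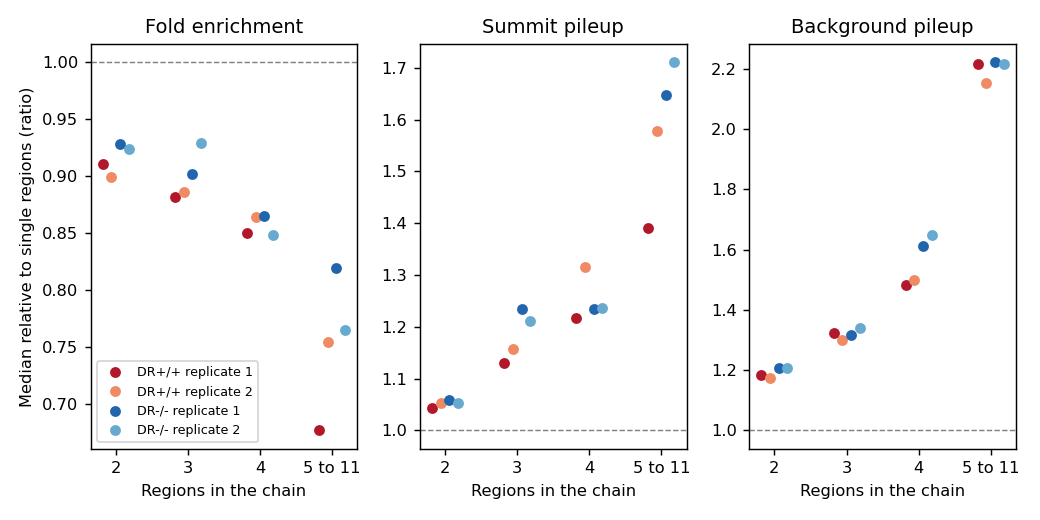
Median fold enrichment, summit pileup and background pileup of regions in chains of 2, 3, 4 and 5 to 11, each divided by the median of single regions in the same library. Each point is 1 library, and the dashed line marks single regions. Enrichment lies below 1 and both pileups above 1 in every library and class shown.

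High backgrounds were found in a few chains. Whether these lie in repeated sequence, or in stretches that collect reads in any experiment, was not tested, since no mm9 annotation was used, and their piles cannot be read as open sites without that. A background over 10 reads in at least 1 library, a limit chosen after the values were seen, was found in 62 members (14.4%) and in 27 of the 10917 other narrow common regions (0.247%). The 62 lay in 10 chains. Beside the chain of 29 and the 2 chains on chromosome 6, these included chains of 3 on chromosome 2 at 98502385 to 98505376, on chromosome 8 at 19982749 to 19990328, on chromosome 10 at 57686694 to 57688373 and on chromosome 18 at 3004739 to 3011095. The chromosome 2 chain had pileups of 138 to 212 reads over backgrounds of 37.6 to 43.8 reads, with enrichment of 3.60-fold to 5.10-fold. On chromosome 17, chains of 3 at 15115692 to 15130441 and at 15147052 to 15161756 lay 16610 bp apart, with backgrounds of 6.27 to 11.7 reads. The remaining chain, of 4, lay on chromosome 5 at 15043801 to 15053003. Without these 10 chains 362 members in 107 chains were left, and their enrichment ratio was 0.881 ± 0.00848 in DR+/+ and 0.908 ± 0.00799 in DR-/- (SD, n = 2 each).

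**Figure D3:**
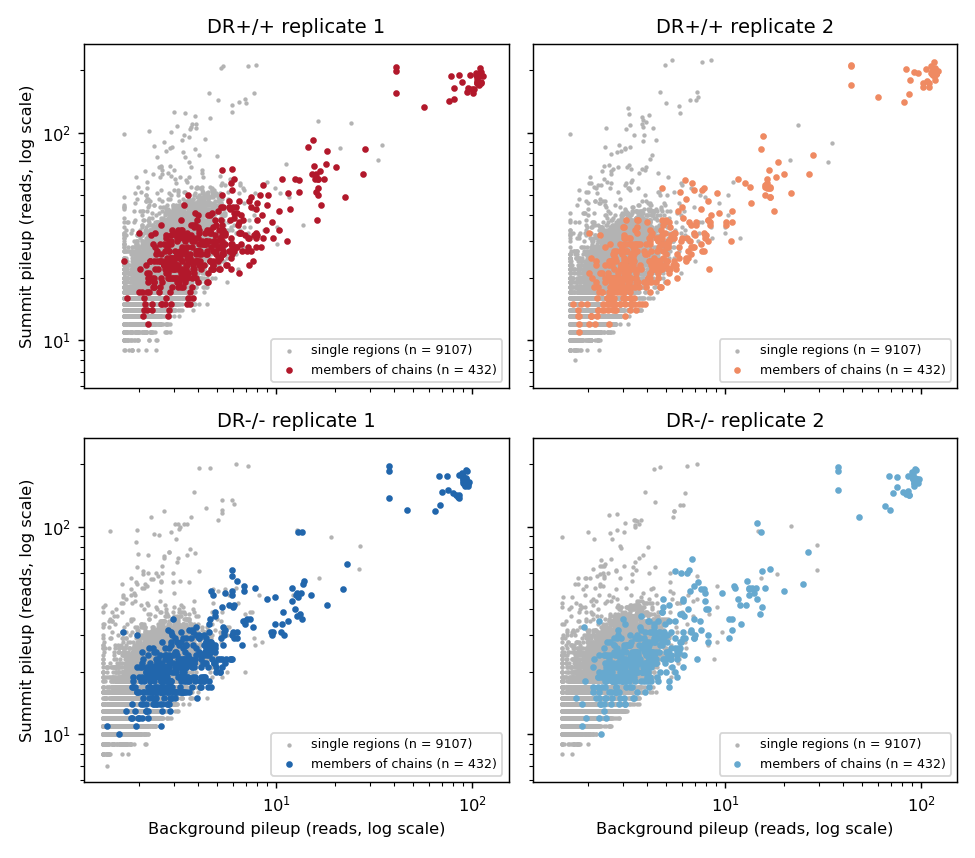
Summit pileup against background pileup of every member (coloured) and of the 9107 single regions (grey), 1 panel per library, both axes in reads on log scales. Members reach backgrounds of 122 reads, and the highest background of a single region was 35.0 reads.

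Members of 1 chain resembled each other in background more than in enrichment. The intraclass correlation, the share of the variance of the log2 value that lies between chains, was 0.681 to 0.715 for fold enrichment over the 4 libraries, 0.863 to 0.882 for pileup and 0.963 to 0.966 for background. The chain of 29 and the other chains of high background carried much of this. In the 107 chains without them the values were 0.193 to 0.309 for enrichment, 0.392 to 0.472 for pileup and 0.756 to 0.777 for background. The 905 pairs had 0.123 to 0.172, 0.270 to 0.335 and 0.847 to 0.853. Background was thus the most alike of the 3 measures in each set. A local background may be drawn from a stretch that close neighbours share, and how far this set the values was not tested.

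The order of members within a chain was only partly kept between libraries. The member with the highest enrichment was the same in all 4 libraries in 37 of 117 chains (31.6%). Between the 2 DR+/+ libraries it was the same in 72 chains, between the 2 DR-/- libraries in 68, and between libraries of different populations in 62 to 70. Pairs of libraries from 1 population and from both thus gave similar numbers. In the median chain the strongest member had 1.43 times the enrichment of the weakest, with a range over chains from 1.15 to 3.10. Over the 432 members, Spearman's rho of fold enrichment between libraries was 0.788 within DR+/+, 0.748 within DR-/- and 0.728 to 0.763 between populations, and over the 9107 single regions it was 0.559 to 0.646. Without the chain of 29 it was 0.665 to 0.739 over 403 members. Members of a chain share their surroundings, so these coefficients describe the lists and carry no test.

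The populations were compared by ranks within each library. Enrichment was ranked over the same 11349 narrow common regions in every list and turned into normal scores, on which 0 is the median region and 1 is 1 SD, so that list length does not enter. No region was called by limma with Benjamini-Hochberg adjustment at 0.05, neither among the 432 members (0, smallest adjusted p = 0.69) nor among all regions tested (0 of 11349, 0%). At an unadjusted p under 0.05, 12 members (2.78%) were higher in DR+/+ and 17 (3.94%) in DR-/-, against 3.51% and 3.68% of all regions. Both DR+/+ ranks lay above both DR-/- ranks in 64 members (14.8%, against 18.4% of all narrow common regions), and the reverse held in 90 members (20.8%, against 18.8%). The member counts were thus near those of all regions in both directions.

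Chains as units gave no call either. The mean score of the members was computed for each chain and library, and limma called 0 of 117 chains (smallest adjusted p = 0.38). At an unadjusted p under 0.05, 3 chains (2.56%) were higher in DR+/+ and 8 (6.84%) in DR-/-. Over all regions, fitted singly, the shares were 3.51% and 3.68%, and pairs as units were not fitted. With a replicate block the chain counts were 1 and 3 of the same 117 chains. Leaving out a library changed the chains themselves (146 to 207 in number) and left 1 library in a population. Counts from those fits are therefore not set beside these, and the lean towards DR-/- was not kept in each of them. Both DR+/+ means lay above both DR-/- means in 20 chains (17.1%) and below them in 34 (29.1%). Among the 905 pairs, treated in the same way, the shares were 17.1% and 20.1%. By summit pileup in place of enrichment, both DR-/- means lay above both DR+/+ means in 37 chains (31.6%) and 241 pairs (26.6%), and below them in 21 chains (17.9%) and 157 pairs (17.3%). The median difference of the chains was -0.0562 and that of the pairs -0.0334. The excess of chains towards DR-/- was not tested.

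The largest differences towards DR+/+ were in chains on chromosomes 4 and 9. A chain of 4 on chromosome 4, at 88419650 to 88431897, had mean scores of -0.48 and -0.25 in DR+/+ and -1.77 and -0.79 in DR-/-. All 4 members were higher in DR+/+ on average, and the difference was 0.91 ± 0.38 (SE; limma, adjusted p = 0.42). It lay 14074 bp from a chain of 3 with a difference in the opposite direction. That neighbour, at 88445972 to 88452178, had mean scores of -1.28 and -1.03 in DR+/+ and -0.46 and -1.01 in DR-/- (difference -0.42). The strongest member of the chain of 4, at 88431469 to 88431897, had 34 and 32 reads at the summit in DR+/+ and 21 and 25 in DR-/-. Its enrichment was 6.46-fold and 6.36-fold in DR+/+ and 4.60-fold and 5.31-fold in DR-/-. The 2 populations did not overlap in it, but DR-/- replicate 1 set much of the chain's difference, which was 0.42 without that library and 1.40 without DR-/- replicate 2.

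The chain of 6 on chromosome 4, at 43038353 to 43072045, also ranked higher in DR+/+. Its mean scores were 0.05 and 0.02 in DR+/+ and -0.44 and -0.90 in DR-/-, and 5 of its 6 members were higher in DR+/+ on average (difference 0.70 ± 0.24 SE, adjusted p = 0.42 in limma). In only 2 of the 6 did the populations not overlap. The difference was 0.47 without DR-/- replicate 2 and 0.94 without DR-/- replicate 1. The strongest member, at 43053123 to 43053428, had 31 and 35 reads in DR+/+ and 21 and 27 in DR-/-. A chain of 3 on chromosome 9, at 22112047 to 22132907, had scores of 0.23 and 0.54 in DR+/+ and -0.19 and -0.52 in DR-/-. Its median enrichment was 6.89-fold and 7.01-fold against 4.95-fold and 4.55-fold (difference in score 0.74 ± 0.24 SE, adjusted p = 0.42 in limma).

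The opposite difference was largest in 3 chains of 3. On chromosome 1, at 11385465 to 11391512, the mean scores were -0.65 and -0.75 in DR+/+ and 0.34 and 0.51 in DR-/-, a difference of -1.12 ± 0.19 (SE), the smallest p of all chains (limma, adjusted p = 0.38). All 3 members were higher in DR-/- on average, and in 2 of them the populations did not overlap. The median enrichment was 5.45-fold and 4.33-fold in DR+/+ and 6.20-fold and 6.97-fold in DR-/-. Median pileups overlapped, at 20 and 15 reads in DR+/+ and 17 and 24 in DR-/-, over backgrounds of 2.84, 2.62, 2.09 and 2.59 reads. By summit pileup the difference in score was -1.01. On chromosome 6, at 128710152 to 128714522, the difference was -0.93 ± 0.20 by enrichment and -0.13 by summit pileup. The backgrounds of that chain were 5.93 and 5.19 reads in DR+/+ and 3.88 and 4.07 in DR-/-, and its median pileups 28, 22, 24 and 25 reads. On chromosome 12, at 4904857 to 4924343, the difference was -0.86 ± 0.32, with scores of -0.52 and -0.82 in DR+/+ and -0.17 and 0.55 in DR-/-. It was -0.50 without DR-/- replicate 2. The median enrichment of this chain overlapped between the populations, at 6.51-fold and 4.47-fold in DR+/+ and 5.06-fold and 6.14-fold in DR-/-. In only 1 of its 3 members did the populations not overlap.

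**Figure D4:**
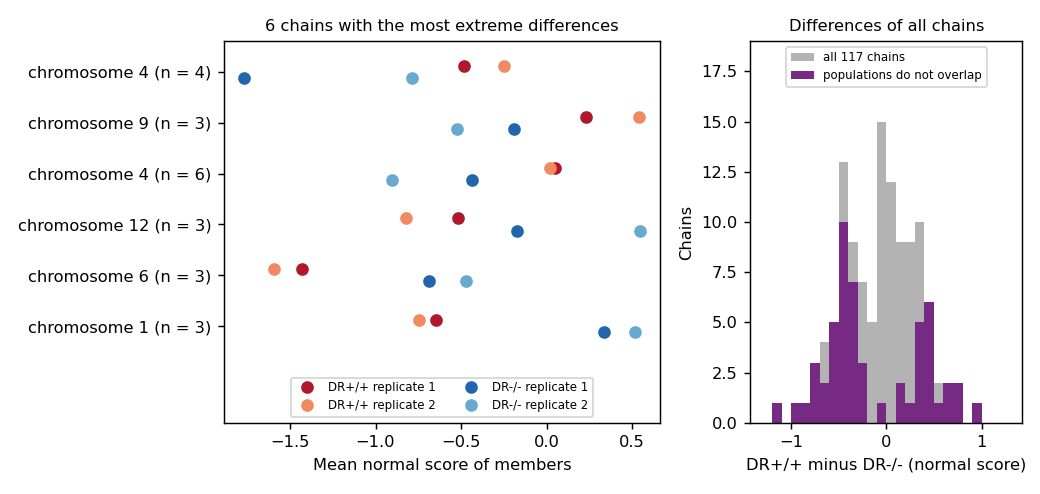
Left, mean normal score of fold enrichment in each library for the 3 chains most shifted towards DR+/+ and the 3 most shifted towards DR-/-, with n members each. Right, the difference of DR+/+ minus DR-/- means in all 117 chains, with the chains whose populations do not overlap (20 and 34) in purple.

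Few of the autosomal regions missing from at least 1 library lay inside chains, 93 of 35859 in all (0.259%). Of 4256 autosomal DR+/+-only regions, with a peak in both DR+/+ lists and in neither DR-/- list, 9 overlapped a chain span (0.211%, 95% Wilson interval 0.111 to 0.401%). Of 668 DR-/--only regions, 0 did, which allows a share of up to 0.449% (3 counts of 668; the upper Wilson bound is 0.572%). These counts turned round when the lists were cut to equal length, to 2 of 1668 DR+/+-only and 5 of 1461 DR-/--only regions inside chains. Both were 0, of 3999 and 605 regions, when peaks were merged over 500 bp. The share was 0.253% (0.193 to 0.33%) of the 20983 regions found in 1 library, 0.359% (0.235 to 0.549%) of the 5843 found in 3, and 0.243% (0.132 to 0.447%) of the 4109 found in 1 library of each population. The intervals of these classes overlap, so no difference between DR+/+-only regions and the others was detectable at these counts.

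**Figure D5:**
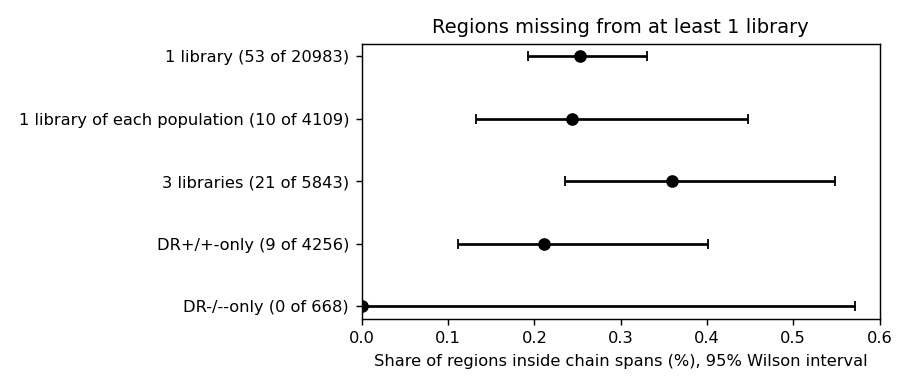
Share of autosomal regions that overlap a chain span, by the libraries in which they were called, with 95% Wilson intervals. The 9 of 4256 DR+/+-only regions give 0.211%, and their interval overlaps those of the classes specific to neither population.

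The 9 DR+/+-only regions lay in 7 chains, and 5 of them in chains with a background over 10 reads. In the chain of 29 there were 3, at 3006307 to 3006486, 3037129 to 3037293 and 3037356 to 3037504. Their summits held 117 to 161 reads in DR+/+ replicate 1 and 119 to 172 in replicate 2, yet their enrichment was only 1.51-fold to 2.13-fold. On chromosome 18, a region at 3008549 to 3008958 had 41 and 42 reads over 16.5 and 16.9 reads of background. Chromosome 5 held 2 in neighbouring chains of 4. One, at 15004752 to 15004952, had 31 and 25 reads and 3.25-fold and 2.91-fold enrichment. The other, at 15052475 to 15052665, had 30 reads in each and 3.51-fold and 3.60-fold enrichment. All 4 common members of the first of these chains, at 14995147 to 15007268, ranked higher in enrichment in both DR-/- libraries (difference in score -0.71 ± 0.22 SE, adjusted p = 0.42 in limma). The median pileup of that chain was higher in DR+/+, at 32 and 32.5 reads against 26 and 27.5 in DR-/-. Its median background was higher there too, at 7.51 and 7.69 reads against 4.72 and 5.61.

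The last 3 lay in chains of 3 in which no member had a background over 10 reads. One was on chromosome 10 at 111610399 to 111610600 (17 reads in each DR+/+ library, 3.92-fold and 4.56-fold). The others were on chromosome 1 at 173001954 to 173002121 (17 and 15 reads) and on chromosome 3 at 96260828 to 96261108 (30 and 23 reads). The chromosome 3 region stood over 6.56 and 5.83 reads of background in DR+/+. The chromosome 10 region lay directly beside a region at 111610613 to 111611011 that was called in both DR-/- libraries (4.11-fold and 4.59-fold). DR+/+ replicate 1 also had a peak in that neighbour (3.93-fold), so the stretch was not closed in DR-/-. Without the 10 chains of high background 4 of the 9 remained. The counts also depended on each library. Without DR+/+ replicate 1, 25 of 8081 DR+/+-only and 16 of 2411 DR-/--only regions lay in chains. Without DR+/+ replicate 2 there were 51 of 17418 and 4 of 980. Without DR-/- replicate 1 there were 27 of 5705 and 25 of 3493, and without DR-/- replicate 2 there were 22 of 6720 and 12 of 2766. Omitting a library relaxes the rule for members and for both classes.

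Counted by library, 59 of 26268 autosomal peaks outside common regions lay inside chains in DR+/+ replicate 1 (0.225%) and 32 of 12725 in DR+/+ replicate 2 (0.251%). In DR-/- the numbers were 27 of 7797 (0.346%) and 38 of 10489 (0.362%). Both DR-/- shares exceeded both DR+/+ shares, and the DR+/+ mean minus the DR-/- mean was -0.116 percentage points (exact two-sided permutation test, p = 0.33, the smallest possible). Without the chain of 29 the difference was -0.0688 percentage points.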

How the data were processed

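Peak lists of 4 ATAC-seq libraries, 2 per population, were used. The submitters' processing notes name mm9, SAMtools 0.1.19, Bowtie2 2.3.0 and FastQC 0.10.1, without roles. The peak caller was not given in the sources used here. For each peak the authors deposited a score (10 times the -log10 q, cut to a whole number for at least 99.95% of peaks in any library), a fold enrichment (ratio) and -log10 values of p and q, each within its own library. The fold is a peak's own value, so it was compared within a list or as ranks over 1 set of regions.

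Regions were merged and chained in Python 3.11.15 (SciPy 1.17.1, NumPy 2.4.6, pandas 2.3.3), and figures drawn in Matplotlib 3.10.9. A region with several peaks in a list took the highest fold. Pileups were solved from fold = (pileup + 1)/(background + 1) and a Poisson upper tail, which gave a whole number for 100% of peaks (-log10 p within 0.001). The distance to the summit was not used. Normal scores were fitted across all 11349 regions, or all 117 chains, with limma 3.58.1 in R 4.3.3. Ratios and shares were compared over libraries by exact permutation. The code was tested on simulated data.

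The members and lists were chosen with earlier results of these data known. Chains named are the 10 with most members, those with most population-only regions inside, the 3 most shifted in each direction without overlap, and the 3 densest of 5 or more. The chains of high background were picked after their values were seen. Alternatives were gaps of 5 and 25 kb, a width limit of 600 bp or none, lists cut to equal length or to their top 50%, merging over 500 bp, chains of 4 or more, each library left out, other measures, pairs among the comparison regions, and a replicate block. Leaving out the largest chain or those of high background, and the summit pileup as measure, were added after seeing the data. Promoter and motif content could not be analysed without an mm9 genome.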

Additional observations from a re-analysis of the deposited data

How the results depend on the processing

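The number of members followed the rule closely. It was 143 with gaps of up to 5 kb, 1409 with 25 kb, 120 with the top 50% of each list, 287 with lists of equal length, 244 with peaks merged over 500 bp, 165 in chains of 4 or more, and 523 to 729 with a library left out (651 without DR+/+ replicate 2, 729 without DR-/- replicate 1). The enrichment of members relative to single regions, 0.851 as the mean of the 4 libraries, was 0.714 with gaps of 5 kb, 0.908 with 25 kb, 0.775 with the top 50%, 0.750 in chains of 4 or more and 0.894 without chains of high background. It was 1.02 by -log10 q and 1.26 by summit pileup. The difference between the populations in this ratio kept its sign in all 18 alternatives (-0.0781 to -0.00964), and that in peaks inside chains in all 15 (-0.468 to -0.0357), neither past the threshold.

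DR+/+-only regions inside chains numbered 5 with gaps of 5 kb, 51 with 25 kb, 14 with no width limit, 2 with the top 50%, 2 with equal lists, 0 with merging over 500 bp, 5 in chains of 4 or more, 4 without chains of high background, and 22 to 51 with a library left out. DR-/--only regions numbered 12 with 25 kb, 1 with the top 50%, 5 with equal lists and 4 to 25 with a library left out. With equal lists DR-/--only regions were thus the more numerous inside chains, 5 of 1461 against 2 of 1668. Totals of the 2 classes were 4256 and 668 unless the lists, the merging or the libraries changed. They were 2149 and 337 with the top 50%. limma called 0 members in all 17 alternatives (smallest adjusted p from 0.37 to 0.93) and 0 chains in all 18 (0.05032 to 0.83, the lowest with gaps of 5 kb). The 6 most shifted chains kept their direction by -log10 q, by centred log2 enrichment and by summit pileup. Since they were chosen for populations that do not overlap, leaving out a library could not turn it. With a population of 1 library, that library was assumed to vary like the others.

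Same-numbered replicates did not deviate together (correlation -0.000503), so the numbers give no pairing. With the replicate block the differences of -0.0311 and -0.116 had p = 0.5 in an exact paired test, the smallest that 2 pairs allow, and limma called 0 members and 0 chains. A typical peak rested on 15 or 16 reads at its summit, which limits differences of single members.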

Other observations

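The X chromosome was left out by the rule. The same chaining applied there gave 24 members in 6 chains, 6.08% of its 395 narrow common regions (95% Wilson interval 4.12 to 8.88%). Of these chains 5 had 3 members, with median backgrounds of 1.62 to 3.61 reads. The largest, with 9 members, lay at 166424088 to 166447025. Its median background was 17.4 and 18.1 reads in DR+/+ and 14.5 and 15.9 reads in DR-/-, with median pileups of 62, 65, 55 and 56 reads. These values were close to those of the 2 chains on chromosome 6.

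Several chains lay near the first peak of their chromosome. Within 500 kb of it there were 6 chains, on chromosomes 7, 9, 14, 16 and 18, with 2 on chromosome 16. A chain of 4 on chromosome 16, at 3114925, ranked higher in DR-/- (difference in score -0.80 ± 0.19 SE, limma adjusted p = 0.42), as did the chain of 5 on chromosome 7 at 3193048 (-0.59 ± 0.20, adjusted p = 0.42), both chosen after their values were seen. The chromosome 7 chain had median backgrounds of 5.11 and 4.66 reads in DR+/+ and 3.53 and 3.77 in DR-/-. Its median pileups were 28 and 22 reads in DR+/+ and 20 and 23 in DR-/-. The chain of 29 on chromosome 9 differed by -0.0011 between the populations (SE 0.18), so its lack of overlap rests on ranks at the very bottom of the scale. In all, 13 chains had another chain within 100 kb, among them the 2 on chromosome 6 and 3 more on that chromosome between 124688688 and 124881520.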
